A study of Mus musculus with 4 samples.

Results

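The genes described here are *Tnfaip3*, which encodes A20, and 9 further genes for the proteins that work with A20 or beside it to take ubiquitin chains off the NF-κB pathway. They were chosen by name, with earlier results of these data known, and make up 10 of the 55356 genes in the table. All 10 names were found once and all passed the minimum mean of 10 normalized counts over the 4 libraries, as did 12483 genes in all.

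Signals from the IL-1 receptor reach the IκB kinases through chains of ubiquitin that are built on adaptor proteins. A20 edits and removes such chains, and it needs ubiquitin-binding partners (the ABIN proteins), an adaptor (TAX1BP1) and ubiquitin ligases (ITCH and RNF11) to do so. CYLD, OTULIN and Cezanne (encoded by *Otud7b*) are deubiquitinases that act on the same pathway, and *Tnfaip3* itself is a textbook NF-κB target gene, so that the pathway induces its own brake.

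The cells were immortalized bone marrow-derived macrophages from *MK2*-KO mice, which lack the p38-activated kinase MK2. One line was transduced with the empty retroviral vector (i*MK2*-KO +*GFP*, below +*GFP* cells), the other with the same vector carrying *MK2* (i*MK2*-KO +*MK2*, below +*MK2* cells), and both were sorted for GFP. Each line was left untreated (UT) or received recombinant murine IL-1α (5 ng/ml, 1 h), which gave 4 libraries, 1 for each condition. The labels give the genotype of the +*MK2* cells as wild type, although MK2 was put back from a virus, and each line is 1 transduced population, so line and genotype cannot be told apart.

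Values are DESeq2 normalized counts, rounded to whole numbers by the authors. Their sums over all genes lay between 24891906 and 25733071 per library. *Mapkapk2*, the gene for MK2, stood at 561 (UT) and 1585 (IL-1α) in +*GFP* cells and at 38357 and 38141 in +*MK2* cells, which follows the labels. All 8 macrophage markers were present in every library, with a summed level between 115860 and 126287. Some of them moved with the line, namely *Mpeg1* with 3305 and 3406 in +*GFP* against 1560 and 1613 in +*MK2* cells, *Adgre1* with 3978 and 4140 against 6832 and 6330, and *Fcgr1* with 1226 and 1194 against 2108 and 2216, and their part in the differences between the lines was not tested. The markers of T cells, B cells, fibroblasts and epithelial cells were at 3 or less. Of the neutrophil markers, *Ly6g* and *S100a9* were at 0 and *S100a8* between 0 and 6. Of the dendritic cell markers, *Flt3* was at 0 in all libraries and *Zbtb46* was at 23 and 18 in +*GFP* cells against 104 and 115 in +*MK2* cells, and its part in the differences between the lines was not tested. As each condition holds 1 library, nothing below has a replicate check, and p-values are not given. Each log2 ratio was taken after adding 1 to both values, and its 95% interval is the exact Clopper-Pearson interval of counting error alone, with each normalized count taken as 1 read. Beyond counting error means below that this interval leaves out 0. The 4 comparisons use the same 4 libraries and are not independent of each other. In bulk RNA, fewer cells that express a gene and less RNA per cell cannot be told apart.

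NF-κB binds a motif known as the κB consensus, in which a run of G and a run of C enclose a variable middle. The 250 bases before the transcription start (RefSeq, GRCm38.p6) were searched on both strands for this consensus and for the AP-1 element TGANTCA. Windows were at hand for 7 members with 9 starts, and *Otud7b*, *Itch* and *Rnf11* had none in the table used. The κB consensus was found at 4 of the 9 starts, against 7.25% of all 32851 promoter windows. These 4 windows are shown since they belong to the 3 members that differed most between the libraries and to *Cyld*, which varied little. Each sequence runs 5′ to 3′ on the strand of the gene up to the base before the start, and capitals mark the matches.
Tnfaip3, chr10:19015411-19015660, minus strand: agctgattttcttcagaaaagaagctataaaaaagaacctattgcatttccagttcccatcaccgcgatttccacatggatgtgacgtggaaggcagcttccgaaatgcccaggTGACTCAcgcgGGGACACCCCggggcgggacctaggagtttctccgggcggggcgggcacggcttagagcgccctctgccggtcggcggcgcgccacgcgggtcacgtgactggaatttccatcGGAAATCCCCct
Tnip1, chr11:54962941-54963190, minus strand: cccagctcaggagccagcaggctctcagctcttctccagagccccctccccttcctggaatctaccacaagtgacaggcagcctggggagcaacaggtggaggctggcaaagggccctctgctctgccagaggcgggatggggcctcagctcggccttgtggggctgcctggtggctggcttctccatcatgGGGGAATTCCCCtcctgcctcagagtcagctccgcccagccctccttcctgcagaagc
Tnip3, chr6:65590148-65590397, plus strand: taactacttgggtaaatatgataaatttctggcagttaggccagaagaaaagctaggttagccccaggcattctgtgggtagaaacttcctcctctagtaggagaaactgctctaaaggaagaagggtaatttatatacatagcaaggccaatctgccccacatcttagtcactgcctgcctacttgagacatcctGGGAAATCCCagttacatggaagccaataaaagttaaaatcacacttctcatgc
Cyld, chr8:88696778-88697027, plus strand: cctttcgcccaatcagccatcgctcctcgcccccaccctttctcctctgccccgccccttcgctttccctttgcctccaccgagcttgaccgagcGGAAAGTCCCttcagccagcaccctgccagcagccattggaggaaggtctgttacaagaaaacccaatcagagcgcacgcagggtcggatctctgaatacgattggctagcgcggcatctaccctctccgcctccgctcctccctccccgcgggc

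The *Tnfaip3* window held 2 separate κB matches, at bases 125 to 116 and 12 to 3 before the start, and an AP-1 match at bases 136 to 130 that lay next to the distal κB match. At least 2 κB matches were present in 1.03% and an AP-1 match in 6.75% of all windows. The former share also counts overlapping matches, so it is not the share of windows with 2 separate matches. The capitals of *Tnip1* are 1 stretch at bases 58 to 47 that was read as 3 overlapping matches. *Tnip3* had its match at bases 54 to 45, and *Cyld* had its match farther from the start, at bases 155 to 146. No match lay in the windows of the other *Tnfaip3* start, of *Tnip2*, of *Otulin* and of both *Tax1bp1* starts. A match is a match of letters, and binding was not measured here.

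**Figure D1:**
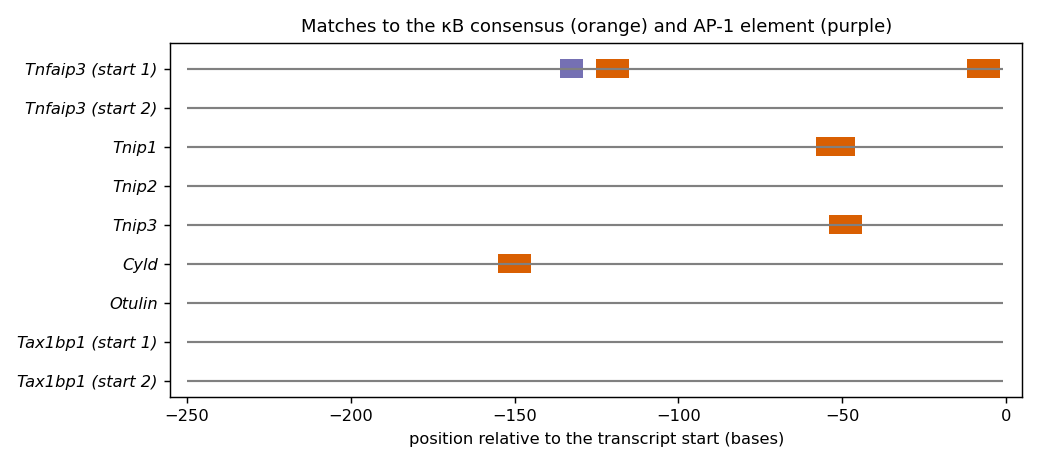
Matches to the κB consensus and the AP-1 element in the 250 bases before each start, with distance from the start in bases on the x axis and 1 line per start. *Tnfaip3* (start 1) shows 2 κB matches and the AP-1 match, *Tnip1*, *Tnip3* and *Cyld* show κB matches alone, and the other lines are empty.

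*Tnfaip3* (ENSMUSG00000019850.12, chromosome 10, 18876658 to 18891405 in the table) encodes A20, which carries a deubiquitinase and a ubiquitin ligase activity in 1 protein. In +*GFP* cells it had 147 normalized counts without and 3524 with IL-1α, and in +*MK2* cells 1147 without and 1207 with IL-1α. The order of the lines was thus reversed by the treatment: the UT +*GFP* library was the lowest of the 4 and the IL-1α-treated library of the same line the highest, with both libraries of the other line close together in between.

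Without treatment *Tnfaip3* was 7.76-fold lower in +*GFP* than in +*MK2* cells (log2 ratio -2.96, 95% interval -3.22 to -2.72), which is rank 173 from the bottom among 12483 genes. After IL-1α it was 2.92-fold higher (interval of the log2 ratio 1.45 to 1.64). Within +*GFP* cells IL-1α went with a 23.8-fold higher value (log2 ratio 4.57, 4.35 to 4.83), rank 15 from the top. Within +*MK2* cells the log2 ratio was 0.07 (-0.04 to 0.19), within counting error, and the responses of the 2 lines differed by 4.50 on the log2 scale (4.24 to 4.77). The fold response thus rests on a low UT value as well as on a high value after IL-1α. *Tnfaip3* was the only member at least 2-fold lower in UT +*GFP* cells.

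**Figure D2:**
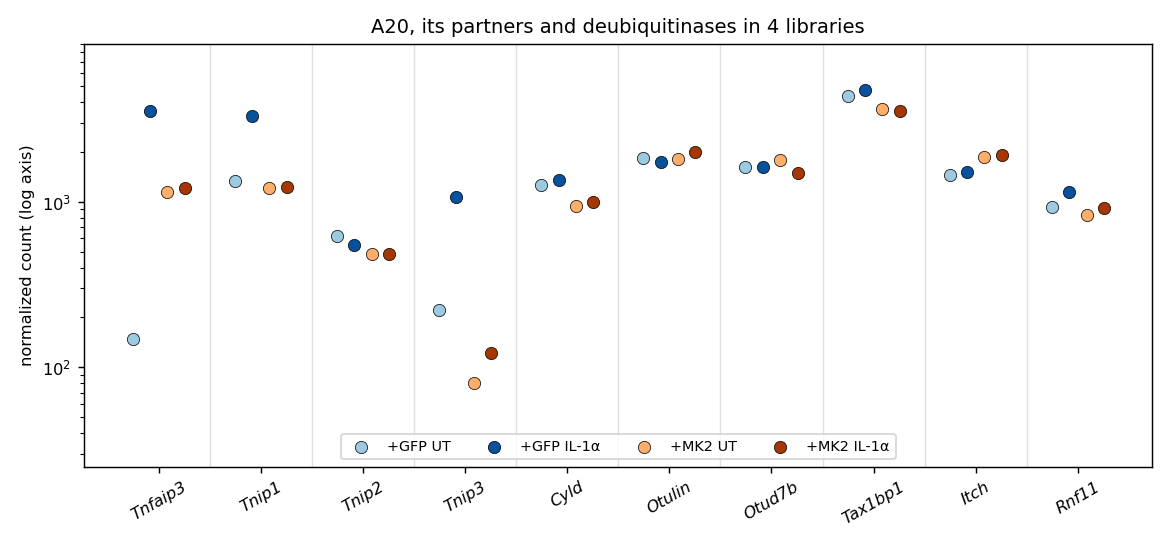
Normalized count of each of the 10 genes in the 4 libraries (log axis), 1 point per library with no replicates. *Tnfaip3* runs from 147 to 3524 within +*GFP* cells and stays at 1147 and 1207 in +*MK2* cells.

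Of the 3 ABIN genes, whose products bind ubiquitin chains and link A20 to its substrates, *Tnip1* and *Tnip3* stood apart in 1 or more comparisons. *Tnip1* (ABIN-1, chromosome 11, 54801611 to 54853743) had 1340 normalized counts in UT and 3296 in IL-1α-treated +*GFP* cells, and 1204 and 1233 in +*MK2* cells. Its 2 UT libraries were close (log2 ratio 0.15, 0.04 to 0.27), and this small difference was within counting error when the values were scaled to *Gapdh*. Unlike *Tnfaip3*, it started from like levels, and only the IL-1α-treated +*GFP* library was set apart from the other 3.

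The response of *Tnip1* to IL-1α was 2.46-fold in +*GFP* cells (log2 ratio 1.30, 1.21 to 1.39), and the log2 ratio in +*MK2* cells was 0.03, within counting error. After IL-1α *Tnip1* was higher in +*GFP* cells by 1.42 on the log2 scale (1.32 to 1.51).

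*Tnip3* (ABIN-3, chromosome 6, 65502297 to 65611024) had 222 and 1063 normalized counts in UT and IL-1α-treated +*GFP* cells, and 80 and 121 in +*MK2* cells. Both +*GFP* libraries were thus above both +*MK2* libraries, which was the opposite order to *Tnfaip3* without treatment. The log2 ratio of the lines was 1.46 in UT cells (1.10 to 1.86) and 3.12 after IL-1α (2.86 to 3.42), an 8.72-fold difference. IL-1α went with a 4.77-fold higher value in +*GFP* cells (log2 ratio 2.25, 2.05 to 2.47). In +*MK2* cells the log2 ratio was 0.59 (0.18 to 1.02), which rests on 80 against 121 normalized counts and was within counting error if each of these stood for 0.5 reads. *Tnip3* was the only member that was at least 2-fold apart between the UT lines in the direction of +*GFP* cells.

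*Tnip2* (ABIN-2, chromosome 5, 34653431 to 34671335), which also holds the kinase TPL-2, had 618 and 550 normalized counts in UT and IL-1α-treated +*GFP* cells, and 485 and 482 in +*MK2* cells. It was the ABIN gene with no higher value after IL-1α in either line. The log2 ratio after IL-1α was -0.17 in +*GFP* cells, with an interval that barely left out 0, and -0.01 in +*MK2* cells. It was 0.35 higher in UT +*GFP* cells (0.18 to 0.52), and the 0.19 after IL-1α was within counting error under each other scaling tried.

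The adaptor and the ligases of the A20 complex varied little. *Tax1bp1* (chromosome 6, 52690714 to 52743765), which encodes the ubiquitin-binding adaptor TAX1BP1, had 4379 and 4765 normalized counts in UT and IL-1α-treated +*GFP* cells, and 3618 and 3520 in +*MK2* cells. *Itch* (chromosome 2, 154975429 to 155068775), a HECT-type ubiquitin ligase, had 1456, 1515, 1862 and 1930 in the same order. *Rnf11* (chromosome 4, 109308295 to 109341925), a small RING protein, had 933, 1151, 828 and 911. *Tax1bp1* was thus higher in +*GFP* cells (log2 ratio 0.28 UT and 0.44 after IL-1α), and *Itch* was lower (-0.35 in both). *Rnf11* was 0.17 higher in UT cells, which was within counting error when scaled to *Gapdh*, and 0.34 higher after IL-1α. The log2 ratio after IL-1α in +*GFP* cells was 0.12 for *Tax1bp1* (0.06 to 0.18), 0.06 for *Itch*, within counting error, and 0.30 for *Rnf11* (0.18 to 0.43).

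The genes of the other deubiquitinases did not follow *Tnfaip3*. *Cyld* (chromosome 8, 89423656 to 89478573), whose product cleaves K63-linked and linear chains, had 1262 and 1351 normalized counts in UT and IL-1α-treated +*GFP* cells, and 940 and 1001 in +*MK2* cells. *Otulin* (chromosome 15, 27542721 to 27630779), whose product cleaves linear chains, had 1851, 1742, 1807 and 1989 in the same order. *Otud7b* (chromosome 3, 96011839 to 96068446) had 1631, 1623, 1791 and 1502. *Cyld* was higher in +*GFP* cells by 0.42 (0.30 to 0.55) without treatment and by 0.43 after IL-1α, and its ratios after IL-1α of 0.10 and 0.09 were within counting error. For *Otulin* the lines differed by 0.03 without treatment, within counting error, and by -0.19 after IL-1α (-0.28 to -0.10). *Otud7b* was 0.25 lower on the log2 scale after IL-1α in +*MK2* cells (log2 ratio -0.25, -0.35 to -0.15), and its ratio in +*GFP* cells was -0.01, within counting error. Between the lines it was -0.13 in UT cells (-0.23 to -0.04) and 0.11 after IL-1α, the latter within counting error under each other scaling. *Otulin* overlaps *Ank* on the other strand, which had 1953, 1972, 2959 and 2910 normalized counts, and whether strand was used in counting is not given in the sources used here.

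**Figure D3:**
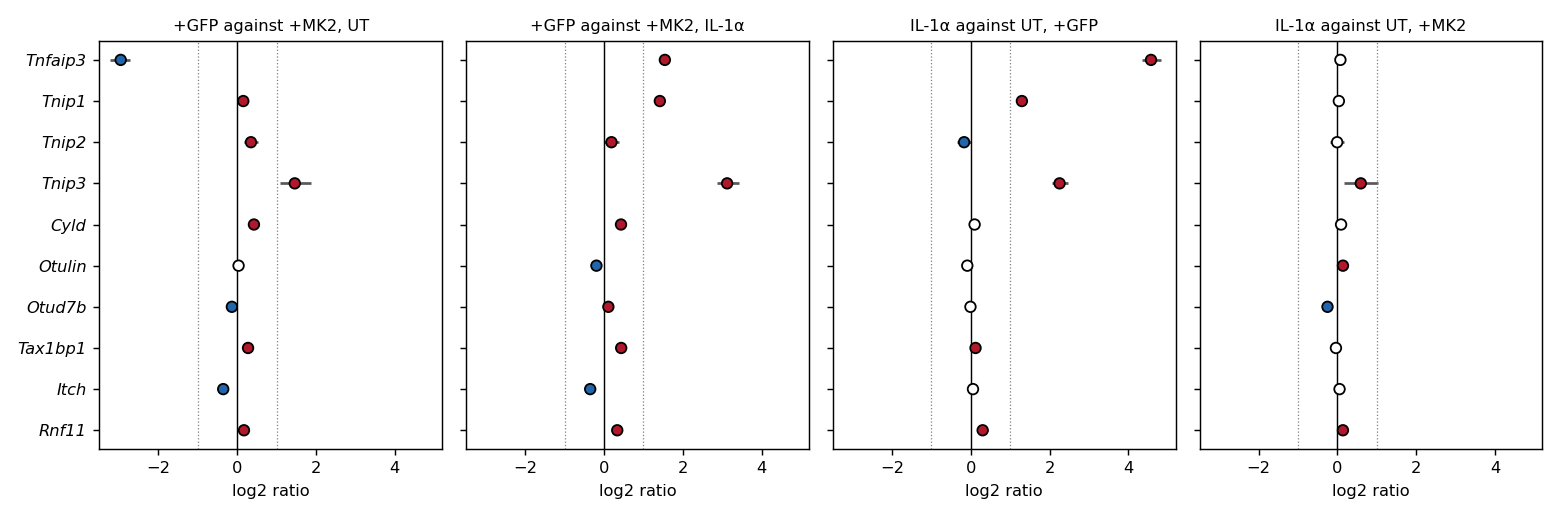
Log2 ratio of the 10 genes in the 4 comparisons, with 95% intervals of counting error, a line at 0 and dotted lines at -1 and 1 (2-fold); red and blue points are higher and lower beyond counting error, open points within it. *Tnfaip3* lies at -2.96 between the UT lines and at 4.57 for IL-1α in +*GFP* cells, whereas 7 of the 10 genes stay within 1 log2 unit of 0 in all comparisons.

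Counted over the 10 genes, 6 were higher and 3 lower beyond counting error in UT +*GFP* than in UT +*MK2* cells, against 30.8% and 26.9% of all 12483 genes. In either direction this made 9 of the 10 genes, against 57.7% of all genes. Scaled to *Gapdh*, 4 of the 10 were higher and 3 lower, against 24.0% and 32.6% of all genes, and with 0.5 reads per normalized count 4 were higher and 2 lower. *Tnip3* was at least 2-fold higher (3.5% of all genes) and *Tnfaip3* at least 2-fold lower (5.23%). The median log2 ratio of the 10 genes was 0.16, against 0.02 over all genes.

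After IL-1α, 8 genes were higher and 2 lower in +*GFP* cells beyond counting error, against 33.7% and 26.3% of all genes. In either direction this made all 10 genes, against 60% of all genes, but only with the values as deposited. Under each of the other scalings and with 0.5 reads per normalized count 6 were higher and 2 lower, without *Tnip2* and *Otud7b*, against 22.0% and 36.7% of all genes in the case of *Gapdh*. *Tnfaip3*, *Tnip1* and *Tnip3* were at least 2-fold higher, a difference that 4.15% of all genes showed, and none of the 10 was at least 2-fold lower (5.56% of all genes). The median log2 ratio was 0.38, against 0.03 over all genes.

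In the response to IL-1α within +*GFP* cells, 5 genes were higher and 1 lower beyond counting error, against 20% and 12.3% of all genes, or 6 against 32.3% in either direction. The split of all genes was 12.9% higher and 18.9% lower when scaled to library totals, 16.0% and 15.1% with the median of ratios and 12.5% and 19.0% with *Gapdh*, and under each of these 5 of the 10 genes were higher and 2 lower. The same 3 genes, *Tnfaip3*, *Tnip1* and *Tnip3*, were at least 2-fold higher (2.24% of all genes), and none was at least 2-fold lower (1.58%). Within +*MK2* cells 3 genes (*Tnip3*, *Otulin* and *Rnf11*) were higher and 1 (*Otud7b*) lower beyond counting error, against 11.4% and 8.23% of all genes, or 4 against 19.6% in either direction. The call of *Rnf11* was lost when scaled to library totals (-0.01 to 0.26) or to the median of ratios (-0.0053 to 0.27) and with 0.5 reads per normalized count. None of the 10 changed at least 2-fold there, as did 0.889% of all genes upwards and 1.03% downwards. Median log2 ratios were 0.11 in +*GFP* and 0.06 in +*MK2* cells, against 0.01 and 0.0083 over all genes.

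The response was larger in +*GFP* than in +*MK2* cells beyond counting error (Wald interval, 0.5 added to each value) for 5 genes and smaller for 1, against 15.9% and 11.2% of all genes. In either direction this made 6 genes, against 27.2% of all genes. The split of all genes was 12.2% and 15.2% when scaled to library totals and 11.0% and 17.1% with *Gapdh*, and the members' counts stayed at 5 and 1. *Tnfaip3* led with 4.50 on the log2 scale, followed by *Tnip3* with 1.66 (1.21 to 2.12) and *Tnip1* with 1.26 (1.12 to 1.41), and differences of at least 1 were found in 3.12% of all genes. None of the 10 had a difference of -1 or below (2.5% of all genes). *Otud7b* (0.25) and *Tax1bp1* (0.16) differed less, and *Otulin* differed by -0.23 (-0.36 to -0.09).

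**Figure D4:**
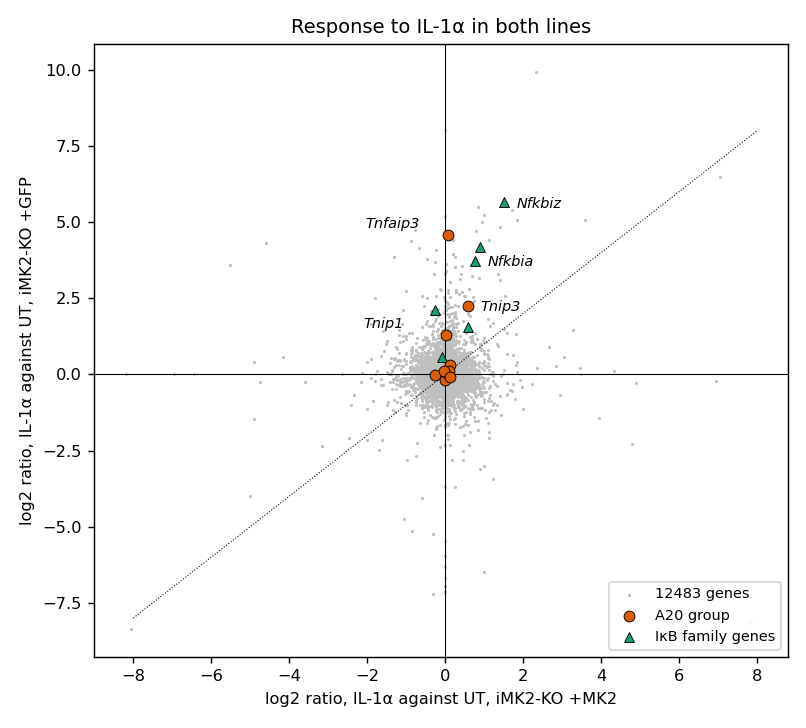
Log2 ratio of IL-1α against UT in +*MK2* (x axis) and +*GFP* cells (y axis) for 12483 genes, with the A20 group as circles, the IκB family genes as triangles and a dotted line where both responses are equal. *Tnfaip3* lies at 0.07 and 4.57, *Tnip3* at 0.59 and 2.25 and *Tnip1* at 0.03 and 1.30, all above the dotted line.

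Levels of different genes can be compared only per length of transcript, and here per kb of the principal GENCODE transcript. In UT +*GFP* cells *Tnfaip3* was the lowest of the 10 genes, with 33.2 normalized counts per kb, and after IL-1α it was the fourth highest with 797 per kb. In +*MK2* cells it was the fifth highest both times, with 259 and 273 per kb. *Tnip3* had 58.9 and 282 per kb in +*GFP* cells and was the lowest gene of +*MK2* cells with 21.2 and 32.1 per kb. *Tax1bp1* and *Otulin* were the most abundant in every library, between 1072 and 1451 per kb for *Tax1bp1* and between 1168 and 1334 for *Otulin*, and *Tnip1* came next each time.

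The 9 neighbouring pairs in this order all differed beyond counting error in UT +*GFP* cells. Only 1 transcript length was used per gene and no other was tried, so these intervals leave out any error in length. After IL-1α 4 pairs of that line did not, namely *Otulin* and *Tnip1*, *Itch* and *Rnf11*, *Rnf11* and *Tnip3*, and *Tnip3* and *Tnip2*. In +*MK2* cells 3 pairs of UT cells (*Tnfaip3* and *Tnip2*, *Tnip2* and *Otud7b*, *Otud7b* and *Rnf11*) and 1 pair after IL-1α (*Tnip2* and *Rnf11*) were within counting error. Per kb, *Tnfaip3* stood at 0.0738 of *Tnip1*, the gene of its partner ABIN-1, in UT +*GFP* cells and at 0.719 after IL-1α. The same ratio was 0.640 and 0.658 in +*MK2* cells, so that the UT +*GFP* library was the one that departed from the others.

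**Figure D5:**
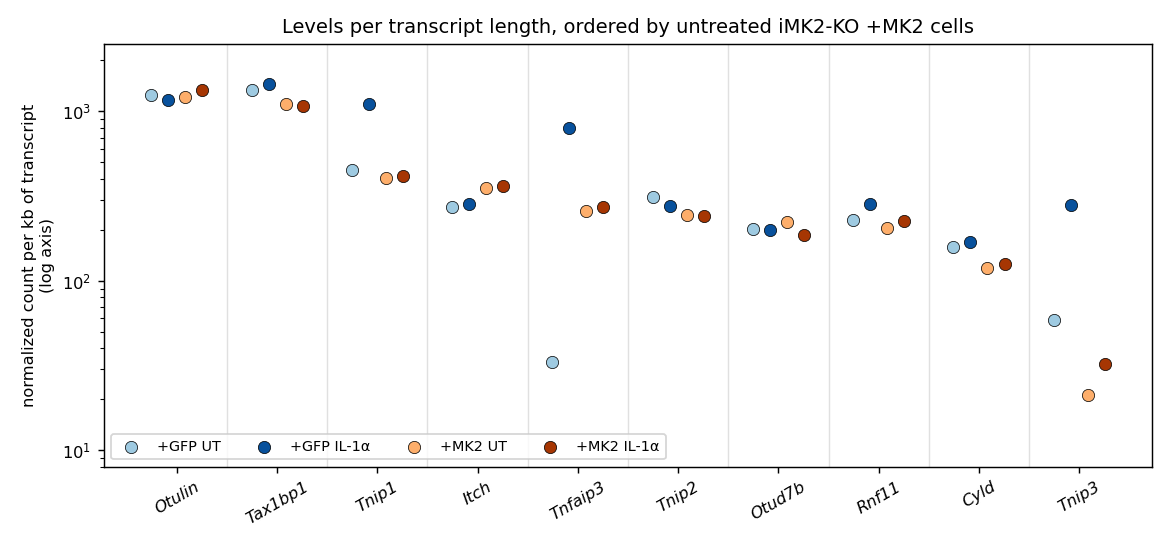
Normalized count per kb of transcript (log axis) of the 10 genes in the 4 libraries, ordered by the level in UT +*MK2* cells. *Otulin* and *Tax1bp1* are the highest in each library, and *Tnfaip3* moves from 33.2 to 797 per kb within +*GFP* cells.

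Other genes of the same system were taken as lists. Among 15 genes that build or read the chains (among them the linear chain ligase, NEMO and TRAF6), 6 were higher and 1 lower after IL-1α in +*GFP* cells beyond counting error, against 20% and 12.3% of all genes. Scaled to library totals these counts were 4 and 3, against 12.9% and 18.9% of all genes. They were the same scaled to *Gapdh*, against 12.5% and 19.0%. In +*MK2* cells 5 were higher and none lower, against 11.4% and 8.23%. Between the lines 3 were higher and 5 lower in UT +*GFP* cells (30.8% and 26.9% of all genes), and 4 higher and 6 lower after IL-1α (33.7% and 26.3%). Scaled to *Gapdh*, the latter were 2 and 9, against 22.0% and 36.7% of all genes. None of the 15 was at least 2-fold apart in any of the 4 comparisons. The median log2 ratio was 0.10 in +*GFP* and 0.05 in +*MK2* cells, and between the lines it was -0.05 (UT) and -0.04 (IL-1α). The widest difference was that of *Traf6*, which encodes a ligase for K63-linked chains behind the IL-1 receptor, with 2651 and 3036 normalized counts in +*GFP* and 1677 and 1657 in +*MK2* cells. Its log2 ratio between the lines was 0.87 after IL-1α. *Ikbkg*, which encodes NEMO, had 1872, 1593, 1829 and 2164 in that order, so that it was lower after IL-1α in the former line and higher in the latter.

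Of 19 further genes linked to restraint of NF-κB, mostly for deubiquitinases, ligases and ligase adaptors, 18 passed the minimum. After IL-1α 7 of them were higher and none lower beyond counting error in +*GFP* cells, against 20% and 12.3% of all genes. The median log2 ratio was 0.05. *Zc3h12a* alone was at least 2-fold higher there, against 2.24% of all genes, and none was at least 2-fold lower (1.58%). In +*MK2* cells 4 were higher and 1 lower (11.4% and 8.23% of all genes), with a median of -0.01. *Zc3h12a* was again the only one at least 2-fold higher (log2 ratio 1.36, 1.03 to 1.71), against 0.889% of all genes. None was at least 2-fold lower (1.03%). Between the lines 6 were higher and 6 lower in UT +*GFP* cells (median 0.02), near the 30.8% and 26.9% of all genes. *Trim30a* and *Otud1* were at least 2-fold lower and none at least 2-fold higher, against 5.23% and 3.5% of all genes. After IL-1α 9 were higher and 3 lower (median 0.12), against 33.7% and 26.3%. *Zc3h12a* was then at least 2-fold higher (4.15% of all genes) and *Trim30a* at least 2-fold lower (5.56%). *Zc3h12a*, which encodes the ribonuclease Regnase-1, had 160 and 1590 normalized counts in +*GFP* and 104 and 268 in +*MK2* cells. Unlike *Tnfaip3*, it was not lower in UT +*GFP* cells. *Trim30a*, which encodes a TRIM protein, was at 6 and 6 against 80 and 64. It was thus lower in +*GFP* cells with and without IL-1α. Its response in +*GFP* cells rests on 6 normalized counts in each library (interval of the log2 ratio -1.90 to 1.90). With a minimum mean of 50, no gene of this list was at least 2-fold lower between the lines. *Otud1*, a deubiquitinase gene, was at 18 and 28 against 41 and 41.

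The 6 genes of the IκB family were taken as a further list, which joins inhibitors that hold NF-κB in the cytoplasm (such as IκBα and IκBε) with nuclear members that act at promoters (such as IκBζ and Bcl-3). All 6 were higher beyond counting error after IL-1α in +*GFP* cells, 5 of them at least 2-fold, with a median log2 ratio of 2.93, against 20% higher and 2.24% at least 2-fold higher over all genes. In +*MK2* cells 4 were higher, 1 of them at least 2-fold, with a median of 0.67 (11.4% and 0.889% of all genes). Between the lines 2 were higher beyond counting error in UT +*GFP* cells (median 0.17), against 30.8% of all genes. All 6 were higher after IL-1α (median 2.72), against 33.7%. None was lower, against 26.9% (UT) and 26.3% (IL-1α) of all genes. *Nfkbia* (IκBα) had 587 and 7794 normalized counts in +*GFP* cells and 480 and 815 in +*MK2* cells. *Nfkbiz* (IκBζ) had 190 and 9664 against 183 and 526, and *Nfkbie* (IκBε) had 44 and 821 against 36 and 68. Between the UT libraries these 3 genes differed by at most 0.29 on the log2 scale (*Nfkbia*), and each was higher after IL-1α in both lines beyond counting error. The response of *Tnfaip3* in +*MK2* cells was within counting error, and so were those of 2 of the 6, among them *Bcl3* with 35 and 29 normalized counts. The UT values of *Tnfaip3*, 147 and 1147, were farther apart than those of any of the 6.

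The genes whose pattern over the 4 libraries was most like that of a member were sought among the 10585 genes whose mean was 50 or more, by the distance between centred log2 values. For *Tnfaip3* the nearest was *Il1a*, the gene of IL-1α itself, at a distance of 1.09 log2 units, with 13 and 136 normalized counts in +*GFP* and 41 and 55 in +*MK2* cells. The predicted gene *Gm6565* followed at 1.48. *Cxcl10*, a chemokine gene, was at 1.63 with 58, 522, 104 and 136. The nearest genes to *Tnip1* were *Tfec* at 0.129, *Itga5* at 0.143, *Ccng2* at 0.164 and *Rel*, which encodes the NF-κB subunit c-Rel, at 0.167. For *Tnip3* they were *Hcar2* at 0.460, *H2-K2* at 0.568 and the kinase gene *Pim1* at 0.60. The distance was not scaled to the range of a gene over the 4 libraries. That range was 4.57 log2 units for *Tnfaip3*, 1.45 for *Tnip1* and 3.72 for *Tnip3*, so distances of different members cannot be compared. With 4 libraries such a likeness is a description only.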

How the data were processed

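RNA was sequenced from 4 libraries, 1 for each line and treatment. The labels describe poly(A) selection and a stranded kit, whereas the methods of the study describe ribo-depletion of total RNA. The authors deposited 1 table of 55356 genes with a score per gene and library, namely DESeq2 normalized counts without decimals. The column names carry the name of salmon's output. The submitters' processing notes name GRCm38, yet only 1494 of 52080 matched genes had their GRCm38 position (51501 had the same span), so that the build of the table's positions is not given in the sources used here and promoter coordinates are RefSeq GRCm38.p6 throughout.

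Values were used as deposited. Log2 ratios (pseudocount 1), exact 95% Clopper-Pearson intervals and counts of calls (12483 genes with a mean of 10 or more) were computed in Python 3.11.15 (numpy 2.4.6, pandas 2.3.3, scipy 1.17.1). The intervals were run on simulated counts with counting error alone, which checks the code and not whether the deposited values behave so. Intervals cover counting error only. Reads behind a normalized count are not known, and 0.5 and 2 reads were tried beside 1. Named were the 10 genes, *Mapkapk2*, at most the 4 genes per list with the largest ratio, and genes most like a member with a range of at least 1 log2 unit. The genes and lists were chosen with earlier results of these data known. Between 0 and 4.89% of the sequence stretches of the 10 genes were shared with other genes.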

Additional observations from a re-analysis of the deposited data

Results flagged for a closer look

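2 genes of the group had responses to IL-1α of opposite sign in the lines. For *Otulin*, which encodes the deubiquitinase of linear chains, the log2 ratio was -0.0875 in +*GFP* cells (1851 and 1742 normalized counts), within counting error, and 0.1384 in +*MK2* cells (1807 and 1989), beyond it. For *Tax1bp1*, the gene of the A20 adaptor, it was 0.1218 in +*GFP* cells (4379 and 4765), beyond counting error, and -0.0396 in +*MK2* cells (3618 and 3520), within it. With 1 library per condition the difference between the lines was not tested against replicate error.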

How the results depend on the processing

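Each of 50 values (10 genes in the 4 comparisons and the difference of the responses) was recomputed under 9 other settings: pseudocounts of 0.5 and 5, no minimum or a minimum mean of 50, scaling to library totals, to the median of ratios or to *Gapdh*, and 0.5 or 2 reads per normalized count. Of these 450 values, 445 stayed within the main counting interval, none of those called changed sign, and 5 moved, all of them for the lines after IL-1α scaled to *Gapdh* (*Tnfaip3* 1.443, *Tnip1* 1.3158, *Otulin* -0.2932, *Tax1bp1* 0.3348, *Itch* -0.4511). That scaling shifts the median of all genes by -0.10 in this comparison.

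The number of genes of the group that were lower after IL-1α in +*GFP* cells was 2 in place of 1 with each of the other scalings and with 2 reads per normalized count, where *Otulin* was added, and 0 with 0.5 reads. The number higher in +*MK2* cells was 1 in place of 3 with 0.5 reads. In all, 24 calls by counting error changed, and none of these was for *Tnfaip3*.

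No paired analysis was possible because each condition holds 1 library, and leaving out a library was not possible for the same reason. No ratio can be set against the spread between cultures, neither the small ones of *Tnip2*, *Otud7b* and *Rnf11* nor the large ones of *Tnfaip3*.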
